A study of Mus musculus with 2 samples.

Results

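The canonical Wnt pathway core was described here as 10 genes, chosen by symbol from the 28692 genes of the count tables: Dvl1, Dvl2, Dvl3, Ctnnb1, Gsk3a, Gsk3b, Axin1, Apc, Csnk1a1 and Tcf7l2. All 10 were listed in the tables of both libraries. The cells were sorted LSK cells (lineage-negative, Sca-1-positive, Kit-positive bone marrow, where blood stem cells and early progenitors are enriched) of C57BL/6 mice. They carried either a retroviral shRNA against Cxxc5 or a control shRNA aimed at no mouse gene, and the virus marked infected cells with GFP. Both groups had then grown for 3 days in DMEM with 20% fetal bovine serum, 10 ng/ml GM-CSF and 10 ng/ml SCF, which drives myeloid differentiation. Each group was 1 droplet 3' library made from 5 pooled samples, so no difference between the groups has a replicate check, no p-value is given, and intervals (95%) cover counting error only.

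In the canonical pathway, Wnt ligands bind a Frizzled receptor and an LRP co-receptor, and Dishevelled proteins carry the signal inside the cell. Without that signal, a destruction complex built on the scaffolds Axin and APC lets casein kinase 1 alpha and then GSK3 phosphorylate beta-catenin, which marks it for degradation. With the signal, beta-catenin accumulates and acts in the nucleus with TCF and LEF factors. Much of this control acts on protein, which RNA counts do not measure. CXXC5 is known to bind Dishevelled and to inhibit Wnt signalling, which is the link between the targeted gene and this gene set.

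The knockdown library held 6015 barcodes with 62910229 UMIs (unique molecular identifiers, counts of captured transcript molecules) and the control library 2925 barcodes with 49333454 UMIs; 26 barcodes occurred in both. Filtering left 6004 knockdown and 2912 control cells, with a median of 10599 UMIs per knockdown cell and 17197 per control cell. Cxxc5 had 73 UMIs in the knockdown library and 462 in the control library, which is 1.16 and 9.38 CPM (UMIs of the gene per 1000000 UMIs of the library) and a log2 ratio of -3.01 (-3.39 to -2.65). Of the markers in the LSK label, Kit was found at 25.2 CPM in knockdown and 24.1 CPM in control cells, and Ly6a, which encodes Sca-1, at 7.52 and 10.1 CPM. Over all cells, markers of lineages the culture could also hold were low in both libraries. The 8 erythroid markers summed to 6.43 CPM in knockdown and 15.3 CPM in control cells, the 6 megakaryocyte markers to 29.9 and 35.1 CPM, the 4 eosinophil markers to 6.60 and 12.6 CPM, and the 6 stromal and endothelial markers to 53.5 and 61.3 CPM. The 7 lymphoid markers summed to 646 and 542 CPM, with 2 of them at 0 in each library. This list shares Nkg7 with the progenitor list. The stem marker-high class, defined below, held more of some of these markers and differed between the libraries. Its megakaryocyte markers summed to 57.9 CPM in knockdown and 433 CPM in control cells, and its erythroid markers to 9.65 and 54.3 CPM.

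Promoter sequence was at hand for 7 of the 10 genes, as RefSeq windows (GRCm38.p6) of 300 bases, from 250 before to 50 after the annotated start; Axin1, Apc and Csnk1a1 had none. The 100 bases just before the first listed start are shown for 4 genes whose levels across cell types took different courses in the values that follow. In CPM, Ctnnb1 and Gsk3a were lower in late neutrophil-like cells than in progenitors and Gsk3b was nearly level. Among the compared gated classes Tcf7l2 was at its highest level in monocyte-like cells. The windows are chr9:120933300-120933399 (plus strand) for Ctnnb1, chr7:25237852-25237951 (minus strand) for Gsk3a, chr16:38088901-38089000 (plus strand) for Gsk3b and chr19:55741710-55741809 (plus strand) for Tcf7l2. The Ctnnb1 stretch lies inside the gene interval given below, which starts at 120929216, and so is not upstream of that start. Each is written 5′ to 3′ on the strand of the gene, and capitals mark each CG dinucleotide, which reads the same on both strands.
Ctnnb1: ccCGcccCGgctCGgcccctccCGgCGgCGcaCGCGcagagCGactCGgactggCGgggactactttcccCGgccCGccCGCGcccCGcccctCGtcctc
Gsk3a: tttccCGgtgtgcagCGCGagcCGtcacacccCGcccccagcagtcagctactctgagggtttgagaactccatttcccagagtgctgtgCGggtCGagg
Gsk3b: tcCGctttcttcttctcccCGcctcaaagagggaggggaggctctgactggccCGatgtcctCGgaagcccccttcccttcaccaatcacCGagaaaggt
Tcf7l2: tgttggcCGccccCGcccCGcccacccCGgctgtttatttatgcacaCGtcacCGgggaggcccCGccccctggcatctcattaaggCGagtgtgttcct
The printed stretch held 17 CG in Ctnnb1, 7 in Gsk3a, 5 in Gsk3b and 8 in Tcf7l2. Over the whole 300-base window the counts were 46 for Ctnnb1, 35 for Dvl1, 34 for Tcf7l2, 30 for Dvl3, 21 for Gsk3b, 20 for Dvl2 and 14 for Gsk3a. At least 1 CG was present in 94.6% of 32851 RefSeq promoter windows of that length, and the median was 7. At least as many CG as in Ctnnb1 were found in 1.65% of these windows, against 24.8% for Gsk3b and 36.3% for Gsk3a. All first listed windows of the 7 genes were thus above the median of all promoters, including those of Gsk3a and Gsk3b, whose levels parted across cell types. Ctnnb1 and Tcf7l2 each had a further window in RefSeq, with 51 and 7 CG.

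Over all cells, the 10 genes spanned more than 2 orders of magnitude, and the order of their levels was nearly the same in both libraries. UMIs count transcript 3' ends and are not divided by length; the share of each gene's transcripts that is captured may still differ between genes. Csnk1a1 (chromosome 18, 61555274 to 61590061, plus strand, GRCm38), which encodes casein kinase 1 alpha, was highest, at 179 CPM in knockdown and 163 CPM in control cells. Ctnnb1 (chromosome 9, 120929216 to 120960507, plus strand), which encodes beta-catenin, followed with 71.2 and 62.7 CPM, and Gsk3b (chromosome 16, 38089001 to 38246084, plus strand) with 43.5 and 49.6 CPM. Gsk3a, which encodes the other GSK3 kinase, had 15.7 CPM in knockdown and 17.1 CPM in control cells. The destruction complex scaffolds were at similar low levels: Axin1 had 14.0 CPM in knockdown and 12.2 CPM in control cells, and Apc 10.5 and 10.7 CPM. Apc has an annotated pseudogene, Apc-ps1, and reads shared with it could not be told apart here.

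The Dishevelled genes were lower still. Dvl2 (chromosome 11, 70000595 to 70012301, plus strand) had 589 UMIs in the knockdown and 401 in the control library, 9.37 and 8.14 CPM. Dvl1 (chromosome 4, 155847402 to 155859303, plus strand) had 287 and 188 UMIs, 4.57 and 3.82 CPM, and Dvl3 (chromosome 16, 20516982 to 20534010, plus strand) 117 and 70 UMIs, 1.86 and 1.42 CPM. Tcf7l2 (chromosome 19, 55741820 to 55933654, plus strand), the only TCF factor in the set, had 76 and 82 UMIs, 1.21 and 1.66 CPM. Dvl3 and Tcf7l2 changed places at the bottom of the order. Their intervals were apart in knockdown cells (1.54 to 2.23 CPM for Dvl3 and 0.952 to 1.51 CPM for Tcf7l2) and overlapped in control cells (1.11 to 1.80 and 1.32 to 2.07 CPM).

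**Figure D1:**
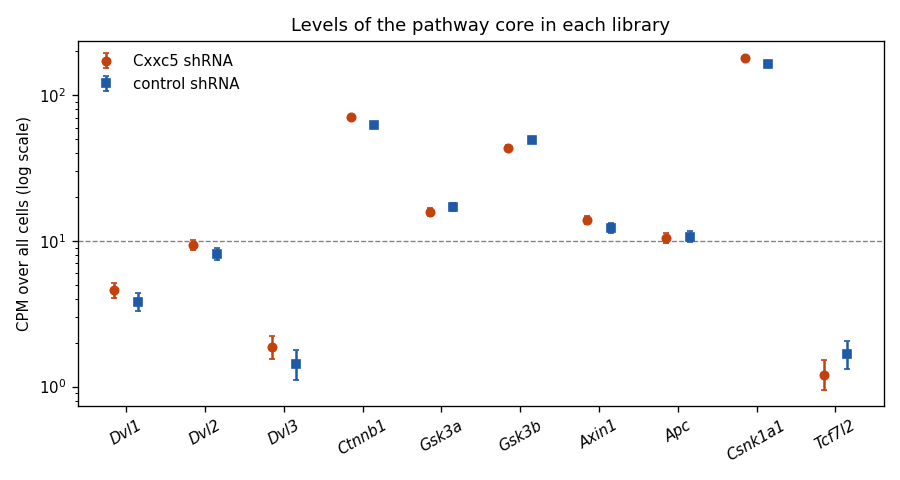
Levels of the 10 genes over all cells in CPM (log axis), with the Cxxc5 shRNA library as circles and the control shRNA library as squares; bars are exact 95% Poisson intervals, hidden where smaller than the point, and the dashed line is the floor of 10 CPM. Csnk1a1 stands highest at 179 and 163 CPM, and Dvl3 and Tcf7l2 lowest, between 1.21 and 1.86 CPM.

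The first comparison asked whether the core genes stood at other levels with the Cxxc5 shRNA. Of the 10 members, 6 reached 10 CPM in at least 1 library (Ctnnb1, Gsk3a, Gsk3b, Axin1, Apc and Csnk1a1), and 0 of these differed by 1.2-fold or more. Among all 6743 genes above that floor, 8.51% did, 3.8% higher and 4.72% lower, around a median log2 ratio of 0.03. Beta-catenin RNA was slightly higher in knockdown cells, with a log2 ratio of 0.18 (0.12 to 0.25). Csnk1a1 and Axin1 lay on the same side, at 0.13 (0.09 to 0.18) and 0.19 (0.04 to 0.34). Gsk3b lay on the other, at -0.19 (-0.27 to -0.11). The intervals of Gsk3a, at -0.12 (-0.25 to 0.02), and Apc, at -0.03 (-0.20 to 0.13), included no difference. These small values rest on many UMIs, and how far 2 pools of one kind would differ was not measured.

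The Dishevelled genes stayed under the floor in both libraries, Dvl2 just outside it and Apc just inside. All 3 were higher in knockdown cells by point estimate. The log2 ratio was 0.20 (0.02 to 0.39) for Dvl2, 0.26 (-0.01 to 0.53) for Dvl1 and 0.39 (-0.05 to 0.84) for Dvl3. Tcf7l2 was at -0.46 (-0.93 to 0.01). With both libraries set to the class shares of the control library it was at -0.13. Monocyte-like cells, its highest compared gated class, made up 5.51% of knockdown and 9.75% of control cells. Within them its ratio was -0.48 (-1.33 to 0.33), from 20 and 40 UMIs. In cells outside every marker gate it was 0.70 (-0.39 to 1.88), from 24 and 11 UMIs. The part of class shares in the ratio of Tcf7l2 was not tested. The values of Dvl3 and Tcf7l2 passed 1.2-fold at counts of 117 and fewer UMIs a library. With every cell thinned to 5000 UMIs in a single random draw, Dvl2 turned to -0.13 and Gsk3b moved to -0.34, past 1.2-fold. In that draw 3.97% of knockdown and 4.40% of control cells held a Dvl2 UMI. At 3000 UMIs per cell these shares were 2.93% and 2.30%, so the direction of Dvl2 depended on the depth, the draw or the cells left out. Too shallow for 5000 UMIs were 641 knockdown and 115 control cells, and for 3000 UMIs 158 and 0. Gsk3b was found in 11.9% of knockdown and 14.8% of control cells at 3000 UMIs.

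Depth per cell differed between the libraries, and the comparison depended on which cells were set side by side. In cells of 10000 to 15000 UMIs, a window chosen after the data were seen, 2722 knockdown cells stood against 451 control cells. Ctnnb1 was then at 73.8 CPM in knockdown and 43.4 CPM in control cells, a log2 ratio of 0.77 (0.58 to 0.96), and Gsk3b at 42.0 and 54.4 CPM, a ratio of -0.37 (-0.55 to -0.19). In that window 5 of the 6 core genes passed 1.2-fold, as did 60.1% of all measured genes, whose median log2 ratio was 0.21. Late neutrophil-like cells, defined in the next paragraph, made up 4.37% of the knockdown and 22.8% of the control cells there, against 8.21% and 11.7% of all cells. Within protease-high progenitors of that depth Ctnnb1 had 78.3 CPM in 983 knockdown cells and 48.5 CPM in 45 control cells, which held 28 UMIs of it (log2 0.69, 0.15 to 1.29). Within early neutrophil-like cells it had 60.9 CPM in 522 knockdown and 36.0 CPM in 88 control cells (0.76, 0.29 to 1.27). Gsk3b in the same cells had ratios of 0.06 (-0.54 to 0.73) in progenitors and -0.28 (-0.69 to 0.15) in early neutrophil-like cells. Control cells of that depth were the shallow end of their class, whose median was 20566 UMIs in progenitors, against 11368 in the knockdown library. The part of depth in these ratios was not tested.

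Cells were next put into classes by marker UMIs per 10000 UMIs of the cell, with none of the 10 genes among the markers. Protease-high progenitors carried Elane, Prtn3, Mpo and Ctsg with low S100a8 and S100a9, under 10 UMIs per 10000 (1803 knockdown and 658 control cells). S100-intermediate cells carried both sets (858 and 368). Early neutrophil-like cells had high S100a8 and S100a9 (1155 and 589), and late neutrophil-like cells had Ltf, Camp, Lcn2 and Ly6g as well (493 and 341). Monocyte-like cells were gated on genes such as Csf1r and Ccr2 (331 and 284), mast cell and basophil-like cells on genes such as Cpa3 and Ms4a2 (353 and 167), and stem marker-high cells on genes such as Cd34 and Meis1 (259 and 138). No gate fitted 639 knockdown and 284 control cells, several fitted 52 and 23, and dendritic-like cells numbered 61 and 60. The last 2 groups had under 100 cells a library and entered no comparison. Protease-high and stem marker-high are names of gates, not of cell types, and 29.3% of knockdown and 28.0% of control cells lay within 1.5-fold of the protease cut.

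Ctnnb1 varied across these classes more than Csnk1a1 and Gsk3b, the other members of at least 20 CPM over all cells. It was at 80.5 CPM in knockdown and 74.4 CPM in control monocyte-like cells and at 79.6 and 69.7 CPM in protease-high progenitors. S100-intermediate cells had 73.3 and 66.5 CPM, mast cell and basophil-like cells 70.0 and 66.5 CPM, and stem marker-high cells 65.2 and 55.5 CPM. Early neutrophil-like cells had 57.0 CPM in the knockdown and 51.0 CPM in the control library, and late neutrophil-like cells 31.9 and 31.2 CPM. In each library the intervals of neighbouring classes overlapped except between early and late neutrophil-like cells, so the top of the order was not resolved. The highest class was 2.52 times the lowest in the knockdown and 2.38 times in the control library. Cells outside every gate held still more Ctnnb1, 91.8 and 82.1 CPM. The ranges of Gsk3a and Axin1, under 20 CPM over all cells, were 2.74- and 2.85-fold in the knockdown library. In the control library they were 2.16- and 2.18-fold.

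By the rule of at least 2-fold between classes in both libraries with the same highest class, Ctnnb1 passed and the 2 other members of at least 20 CPM, Csnk1a1 and Gsk3b, did not. Of all 4555 genes above that level, 29.1% passed, beside 1 of 3 members. The call ended, with 0 members passing, when libraries were scaled by size factors, when cells were averaged instead of summed, and when all gate cuts were halved or doubled, which left 6 and 5 classes of at least 100 cells a library. Csnk1a1 ran in the same direction over a smaller range. Among the gated classes it was highest in protease-high progenitors, at 191 CPM in knockdown and 174 CPM in control cells, and lowest in late neutrophil-like cells, at 130 and 108 CPM, a range of 1.48- and 1.62-fold. Cells outside every gate held more of it, 207 and 193 CPM. Only early and late neutrophil-like cells had separate neighbouring intervals.

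In CPM, Gsk3b kept nearly one level. In the knockdown library its gated classes lay between 38.1 CPM in late neutrophil-like and 49.1 CPM in mast cell and basophil-like cells, and in the control library between 44.9 CPM in stem marker-high and 52.9 CPM in monocyte-like cells. The range was 1.29-fold in the knockdown and 1.18-fold in the control library, and no neighbouring classes had separate intervals in either. This level course held for CPM only. With size factors Gsk3b was higher in late neutrophil-like cells than in protease-high progenitors, with log2 ratios of 0.37 in the knockdown and 0.70 in the control library.

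**Figure D2:**
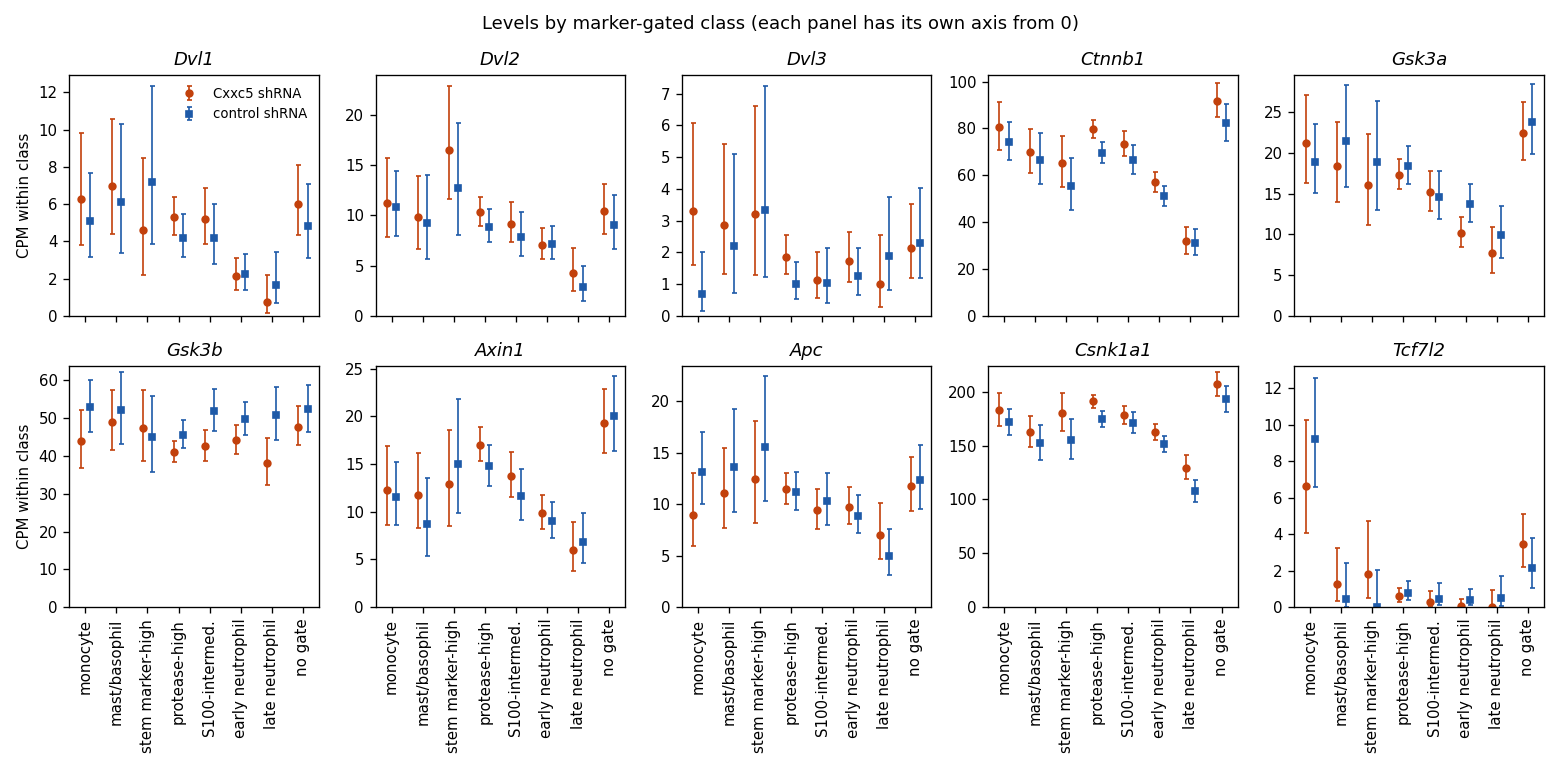
CPM within each marker-gated class and in cells outside every gate, 1 panel a gene with its own axis from 0; circles are the Cxxc5 shRNA library, squares the control shRNA library, and bars exact 95% Poisson intervals. Ctnnb1 drops to 31.9 and 31.2 CPM in late neutrophil-like cells, Gsk3b stays between 38.1 and 52.9 CPM in every gated class, and Tcf7l2 stands up in monocyte-like cells at 6.62 and 9.24 CPM.

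The step from protease-high progenitors to late neutrophil-like cells separated the members most. Late neutrophil-like cells had fewer UMIs, with a median of 7980 in the knockdown and 12068 in the control library, and S100a8 and S100a9 alone took 13.5% and 13.9% of their UMIs. The median log2 ratio of all 6482 genes of at least 10 CPM in both libraries, late neutrophil-like over progenitor, was -0.59 in the knockdown and -0.64 in the control library. Ctnnb1 was below that, at -1.32 (-1.59 to -1.06) in the knockdown and -1.16 (-1.43 to -0.89) in the control library. Axin1 was at -1.51 (-2.17 to -0.91) and -1.10 (-1.72 to -0.53), Gsk3a at -1.16 (-1.74 to -0.63) and -0.89 (-1.40 to -0.41), and Apc at -0.71 (-1.34 to -0.15) and -1.17 (-1.90 to -0.50). Csnk1a1 followed the median of all genes, at -0.56 (-0.70 to -0.43) and -0.70 (-0.84 to -0.55). Gsk3b had a ratio of -0.11 (-0.37 to 0.14) in the knockdown and 0.16 (-0.08 to 0.38) in the control library, higher than 73.8% and 83.6% of the genes measured.

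Counted at 1.5-fold in both libraries, 4 of 6 members were lower in late neutrophil-like cells than in progenitors (Ctnnb1, Gsk3a, Axin1 and Apc), as were 45.2% of all genes measured. With size factors the count became 1, Ctnnb1, against 21.6% of all genes, and the median of all genes moved to -0.11 in the knockdown and -0.10 in the control library. Ctnnb1 then had ratios of -0.84 and -0.62, Csnk1a1 -0.08 and -0.15, and Gsk3b 0.37 and 0.70. A size factor moves all genes of a class by the same amount, so each gene's distance from the median of all genes, with Ctnnb1 below it and Gsk3b above, is the same under both scalings by construction.

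Early neutrophil-like cells took a smaller step from the progenitors. Only Axin1 of 6 members was 1.5-fold lower in both libraries, with log2 ratios of -0.79 in the knockdown and -0.71 in the control library, against 10.1% of all genes.

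**Figure D3:**
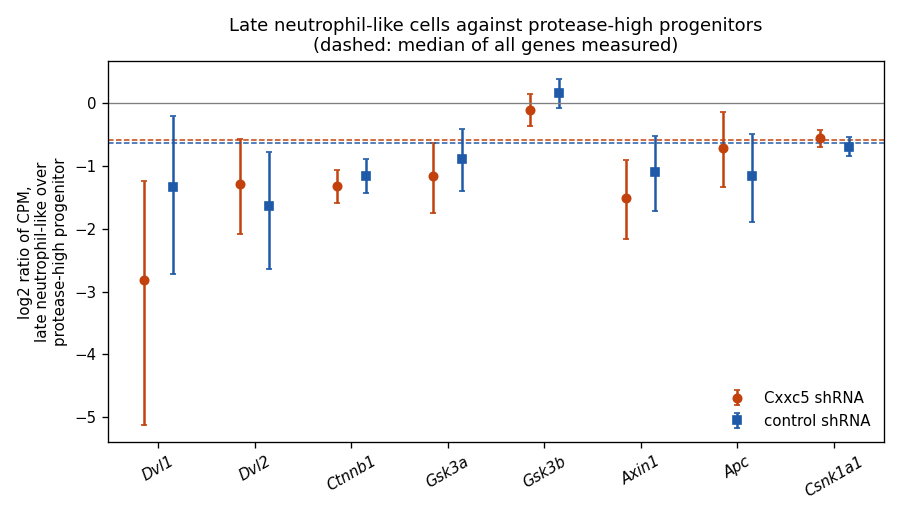
Log2 ratio of CPM in late neutrophil-like over protease-high progenitor cells for the 8 members other than Dvl3 and Tcf7l2, circles for the Cxxc5 shRNA and squares for the control shRNA library, with exact 95% intervals; dashed lines mark the median of all genes measured (-0.59 and -0.64). Gsk3b lies near 0 at -0.11 and 0.16, and Ctnnb1 at -1.32 and -1.16.

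Dvl1 and Dvl2 were lowest of the gated classes in late neutrophil-like cells in both libraries, and Dvl3 was so in the knockdown library only, at 0.997 CPM, against 1.89 CPM in control late neutrophil-like cells. Dvl2 had 17 UMIs in knockdown and 12 in control late neutrophil-like cells, 4.24 and 2.84 CPM, against 10.3 and 8.86 CPM in progenitors (log2 -1.29 and -1.64). Its highest class was stem marker-high cells in both libraries, at 16.5 CPM in knockdown and 12.8 CPM in control cells, from 36 and 23 UMIs. Dvl1 had 3 and 7 UMIs in late neutrophil-like cells, 0.747 and 1.66 CPM, against 5.28 and 4.2 CPM in progenitors. Neither gene had neighbouring classes with separate intervals in the knockdown library. Dvl3 gave no order that both libraries shared: monocyte-like cells were its highest class in the knockdown library, with 10 UMIs, and its lowest in the control library, with 3.

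Within families, the split between paralogs was close in the 2 libraries. Dvl2 took 59.3% of all Dvl UMIs in knockdown cells (56.2 to 62.4) and 60.8% in control cells (57.0 to 64.6), and Dvl1 28.9% and 28.5%. Gsk3b took 73.4% of Gsk3 UMIs in knockdown and 74.4% in control cells. That share was larger in neutrophil-like cells. It was 70.4% (67.7 to 72.9) in knockdown and 71.3% (68.1 to 74.3) in control protease-high progenitors, 81.3% (78.1 to 84.2) and 78.4% (75.1 to 81.5) in early neutrophil-like cells, and 83.2% (76.9 to 88.3) and 83.7% (78.6 to 88.0) in late neutrophil-like cells. The intervals of progenitors and both neutrophil-like classes did not overlap in either library. S100-intermediate cells lay at 73.8% (69.9 to 77.3) in the knockdown and 78.1% (73.9 to 81.8) in the control library, near the control early neutrophil-like value. With gate cuts doubled, the share was 83.6% in knockdown late neutrophil-like cells, against 79.3% in progenitors, and with cells thinned it was 81.0% in control late neutrophil-like cells, against 76.9% in progenitors. The Dvl2 share had wide intervals in each class, from 44.4% to 70.8% by point estimate, and showed no such order.

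**Figure D4:**
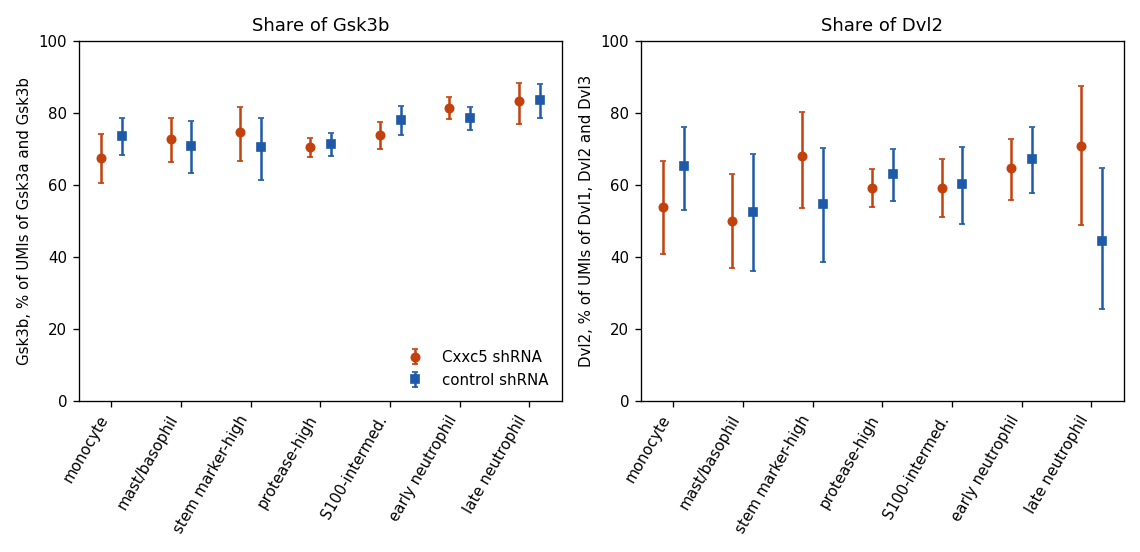
Gsk3b as a percentage of Gsk3a and Gsk3b UMIs (left) and Dvl2 as a percentage of Dvl UMIs (right) in each gated class, circles for the Cxxc5 shRNA and squares for the control shRNA library, with exact 95% Clopper-Pearson intervals. The Gsk3b share is 83.2% and 83.7% in late neutrophil-like cells, against 70.4% and 71.3% in protease-high progenitors.

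Tcf7l2 was highest in monocyte-like cells among the compared gated classes of both libraries. It had 20 UMIs in 331 knockdown and 40 UMIs in 284 control monocyte-like cells, 6.62 (4.04 to 10.2) and 9.24 (6.60 to 12.6) CPM. Protease-high progenitors had 0.587 and 0.764 CPM, from 12 and 10 UMIs, although they were more numerous. The log2 ratio of monocyte-like over progenitor cells was 3.50 in the knockdown and 3.60 in the control library. Cells outside every gate had 24 and 11 UMIs, 3.43 and 2.12 CPM, and in the knockdown library these were more UMIs than the monocyte-like cells held. Dendritic-like cells, too few for a comparison, had 6 and 8 UMIs, 11.3 and 8.89 CPM. Late neutrophil-like cells had 0 UMIs in the knockdown library, which allows up to 0.747 CPM, and 2 in the control library. With every cell thinned to 5000 UMIs, 2.92% of knockdown and 5.66% of control monocyte-like cells held a Tcf7l2 UMI (8 of 274 and 15 of 265), against 0 of 404 and 0 of 308 late neutrophil-like cells, which allows up to 0.743% and 0.974%. The share in late neutrophil-like cells is given as the background that free RNA could leave in cells with little or no Tcf7l2; their median depth before thinning was 7980 and 12068 UMIs, against 9189 and 15691 in monocyte-like cells. The Ppnr gene overlaps Tcf7l2 on the same strand, and whether any of its reads were counted as Tcf7l2 was not tested.

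Between the libraries, the classes were then compared one by one. Of 28 pairs of a member and a class with at least 20 CPM, 4 passed 1.2-fold, 3 lower and 1 higher in knockdown cells. Gsk3b made up all 3 lower ones, in late neutrophil-like cells, where 11% of all genes were that much lower and 19.9% higher, in S100-intermediate cells (5.56% lower) and in monocyte-like cells (11.1% lower). It had 38.1 CPM in knockdown and 50.9 CPM in control late neutrophil-like cells, a log2 ratio of -0.42 (-0.73 to -0.11). In S100-intermediate cells it had 42.7 and 51.9 CPM (-0.28, -0.49 to -0.07) and in monocyte-like cells 44.0 and 52.9 CPM (-0.26, -0.58 to 0.05). The higher pair was Csnk1a1 in late neutrophil-like cells, at 130 and 108 CPM (0.27, 0.08 to 0.45). Gsk3b in monocyte-like cells turned to 0.04 when cells were thinned to 5000 UMIs. In S100-intermediate cells its ratio was -0.51 when thinned, and it no longer passed 1.2-fold with gate cuts halved (-0.26) or doubled (-0.08).

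Such ratios were common among all genes of the same classes. In either direction, 30.9% of genes passed 1.2-fold in late neutrophil-like cells, where 2 of 3 members did, 12.6% in S100-intermediate cells, where 1 of 3 did, and 19.8% in monocyte-like cells, where 1 of 4 did. In the other classes 0 members passed, against 27.9% of all genes in stem marker-high cells, 27.2% in mast cell and basophil-like cells, 12.6% in early neutrophil-like cells, 12.1% in cells outside every gate and 6.21% in protease-high progenitors.

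The directions were counted next. Ctnnb1 was higher in knockdown cells in 8 of 8 classes, with log2 ratios from 0.03 in late neutrophil-like to 0.23 in stem marker-high cells, and Csnk1a1 in 8 of 8, from 0.06 to 0.27. Gsk3b was lower in 7 of 8 classes, with stem marker-high cells the exception at 0.08. Dvl2 was higher in 7 of 8 and Gsk3a lower in 6 of 8. How many of all genes kept one direction over the classes was not counted, so nothing about the members is read from these counts. In late neutrophil-like cells the median log2 ratio of all genes was 0.06, above that of Ctnnb1. With size factors Ctnnb1 turned lower in late neutrophil-like cells, and with cells thinned to 5000 UMIs it turned lower in monocyte-like cells, where Gsk3b turned higher, and Dvl2 was higher in only 3 of 8 classes. With the mean over cells Ctnnb1 turned lower in mast cell and basophil-like cells, Gsk3b higher there, and Dvl2 was higher in 5 of 8 classes. With gate cuts halved, which left 6 classes, Ctnnb1 was lower in monocyte-like cells and Gsk3b higher in mast cell and basophil-like cells. Csnk1a1 was higher in every class under each of these settings. The classes share their 2 libraries and are not replicates of the knockdown. Single intervals that excluded no difference were few: 3 classes for Csnk1a1, 2 for Gsk3b, and 1 each for Ctnnb1 (protease-high progenitors, 0.19, 0.08 to 0.31), Gsk3a (early neutrophil-like, 10.2 against 13.7 CPM, -0.43, -0.79 to -0.07) and Dvl3 (monocyte-like).

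**Figure D5:**
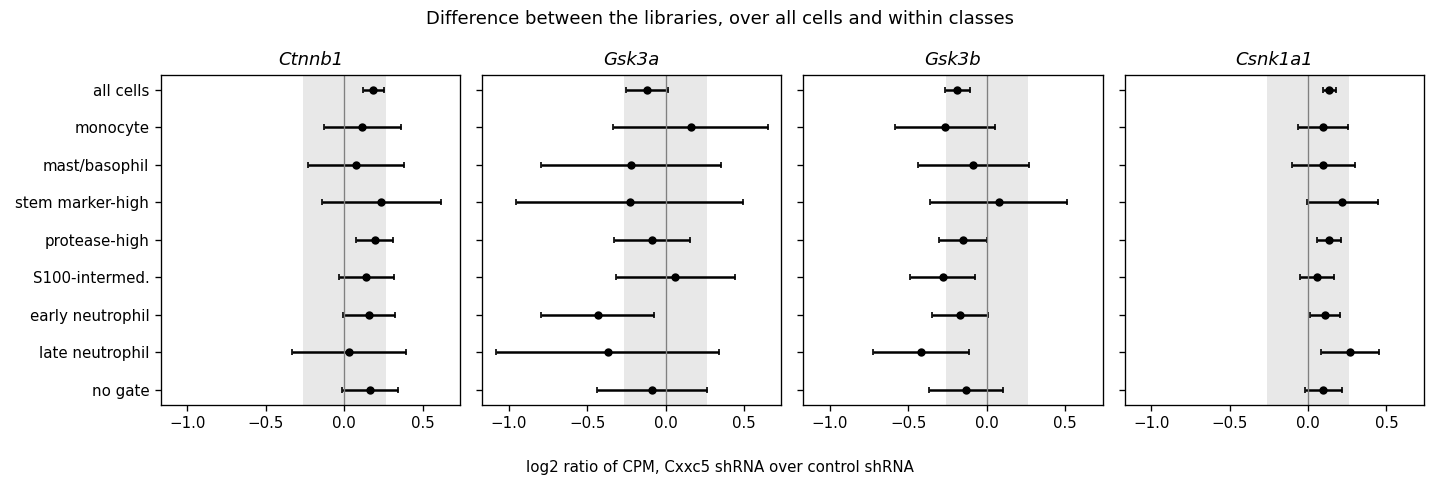
Log2 ratio of CPM, Cxxc5 shRNA over control shRNA, over all cells and in each class for the 4 members best measured within classes; points are ratios, bars exact 95% intervals, and the grey band spans less than 1.2-fold in either direction. Ctnnb1 and Csnk1a1 lie right of 0 in every class as summed here (with size factors Ctnnb1 does not in late neutrophil-like cells), and Gsk3b leaves the band to the left in late neutrophil-like cells at -0.42.

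Cell by cell, Csnk1a1, Ctnnb1 and Gsk3b were found about as often as their level alone would give. At low levels the mean largely sets this share, so the closeness does not show that cells carried a gene evenly. Tcf7l2 was as close in control cells, at 0.930% against 0.925% at random, though its level differed between classes. With every cell thinned to 5000 UMIs, which left out 641 knockdown and 115 control cells, Csnk1a1 was found in 57.7% of knockdown and 52.6% of control cells (57.9% and 53.7% if UMIs fell on cells at random). Ctnnb1 was found in 29.1% and 26.4% (29.5% and 26.5% at random) and Gsk3b in 18.5% and 22.5% (18.7% and 23.1%). Unthinned, Ctnnb1 was found in 49.3% of knockdown and 58.1% of control cells, the reverse order, with control cells the deeper ones. Any of the 3 Dishevelled genes was found in 6.81% of knockdown and 6.76% of control cells, and any of the 10 members in 80.3% and 78.1%. A cell without a UMI of Dvl1, Dvl2 or Dvl3 at this depth is not shown to lack the transcript.

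Cells rich in mitotic transcripts (at least 20 UMIs of 11 markers per 10000, including Ccnb1 and Plk1) were set against cells with under 5. Csnk1a1 was higher in mitotic-high than in mitotic-low cells, at 170 against 153 CPM in the knockdown library (log2 0.15, 0.05 to 0.26) and at 156 against 135 CPM in the control library (0.21, 0.09 to 0.32). Within protease-high progenitors its ratios were 0.15 (-0.04 to 0.34) and 0.20 (-0.05 to 0.44), and both intervals included no difference. Over all cells Ctnnb1 was at -0.003 (-0.17 to 0.16) in the knockdown and 0.21 (0.02 to 0.40) in the control library. Dvl3, from 10 and 31 UMIs in the knockdown library, was at -1.35 (-2.54 to -0.28) there and at 0.44 (-0.75 to 1.65) in the control library. Dvl2 was lower, at 8.26 against 11.1 CPM in the knockdown library (-0.43, -0.88 to 0.01) and at 5.56 against 10.3 CPM in the control library (-0.89, -1.44 to -0.35). Within protease-high progenitors Dvl2 had 10.3 against 10.2 CPM in the knockdown library (0.02, -0.83 to 0.85) and 5.44 against 12.3 CPM in the control library (-1.18, -2.53 to 0.02), from 8 and 25 UMIs; the intervals overlapped and both included no difference. Of 3 members of at least 20 CPM, 0 passed 1.2-fold over all cells in either library. Of all genes, 22.7% in the knockdown and 33.9% in the control library were that much higher in mitotic-high cells, and 8.18% and 8.94% that much lower. Within knockdown protease-high progenitors 1 of 3 members passed, beside 30.3% of all genes: Gsk3b was at 57.2 CPM in mitotic-high and 38.6 CPM in mitotic-low cells (0.57, 0.19 to 0.94). In control progenitors it was at 38.8 and 43.8 CPM (-0.17, -0.68 to 0.32), and the difference between the libraries was not tested. Mitotic-high cells were also deeper, with a median of 11971 against 8298 UMIs in the knockdown and 21116 against 12695 in the control library.

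Within the control library, 368 cells with a Cxxc5 UMI were set against 2544 without. The cells with one were also deeper, with a median of 18592 against 17080 UMIs, and of 22478 against 20290 within protease-high progenitors. Gsk3a had 20.7 CPM in cells with and 16.5 CPM in cells without (log2 0.32, 0.05 to 0.59), and 23.3 and 17.3 CPM within protease-high progenitors (0.43, -0.03 to 0.87). It reached 20 CPM only in the cells with a Cxxc5 UMI, so the floor itself favoured a higher value, and nothing is read from its being the 1 of 4 members past 1.2-fold (12.9% of genes were that much higher over all cells and 6.57% within progenitors). Ctnnb1 was at 66.6 and 62.1 CPM (0.10, -0.05 to 0.25) and Gsk3b at 48.9 and 49.7 CPM (-0.02, -0.20 to 0.15). Among the compared gated classes of the control library, Cxxc5 itself was highest in stem marker-high cells, at 38.3 CPM. It was at 1.93 CPM in early neutrophil-like cells. Late neutrophil-like control cells held 0 Cxxc5 UMIs, which allows up to 0.710 CPM.

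The rest of the pathway was taken from lists of 151 other genes, of which 49 had at least 10 CPM in a library. Of these, 3 were 1.2-fold higher in knockdown cells and 0 lower, with a median log2 ratio of 0.07, against 8.51% of all genes past that fold and a median of 0.03. Of 25 ligand and secretion genes only Wls, which escorts Wnt ligands out of the cell, was measured, at 39.1 CPM in knockdown and 36.5 CPM in control cells. Wnt4, a ligand, had 0.477 and 0.548 CPM, and Rspo1, an R-spondin that amplifies Wnt signals, 1.0 and 0.426 CPM from 63 and 21 UMIs. Of 20 receptors and co-receptors, Lrp6 had 12.5 and 11.6 CPM, Lrp5 7.33 and 6.98 CPM, and Atp6ap2, a proton pump accessory protein that links Lrp6 to the pump, 151 and 141 CPM.

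None of 16 secreted and membrane inhibitors was measured. Znrf3, a ubiquitin ligase that removes Frizzled, had 2.96 CPM in knockdown and 2.98 CPM in control cells, its relative Rnf43 0.127 and 0.122 CPM, and Kremen1, a receptor for Dickkopf inhibitors, 1.34 and 2.01 CPM. Of 21 Dishevelled partners and regulators 9 were measured and 0 passed, among them the casein kinase 2 subunits Csnk2b, at 149 and 142 CPM, and Csnk2a1, at 52.8 and 54.6 CPM, and the arrestin Arrb2, at 57.9 and 62.9 CPM.

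Among 22 destruction complex partners 21 were found, 15 were measured and 1 was higher. This was Ppp2cb, a catalytic subunit of protein phosphatase 2A, at 53.7 CPM in knockdown and 44.1 CPM in control cells (log2 0.28, 0.20 to 0.36). Its paralog Ppp2ca had 170 and 156 CPM (0.12), and the ubiquitin ligase subunits Rbx1 and Skp1a had 445 against 414 CPM (0.10) and 92.1 against 92.6 CPM (-0.01). Of 29 nuclear partners 17 were measured and 2 were higher, the Groucho co-repressors Tle1, at 18.1 and 14.2 CPM (0.35, 0.21 to 0.49), and Tle4, at 11.6 and 9.44 CPM (0.29, 0.12 to 0.46). Both were picked for mention after their values were seen, and Tle4 reached 10 CPM only in the knockdown library, where it was higher. Ruvbl2, an ATPase found in chromatin remodelling complexes, had 106 and 90.2 CPM (0.23), the short Groucho relative Aes 133 and 141 CPM (-0.09) and the co-repressor Ctbp1 118 and 117 CPM (0.01).

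Of 28 target genes known from other tissues, 5 were measured and 0 passed 1.2-fold over all cells. Birc5, which encodes survivin, had 295 CPM in knockdown and 269 CPM in control cells (0.13), Myc 65.6 and 63.7 CPM (0.04) and Id2 55.0 and 57.0 CPM (-0.05). Sox4, at 0.24 (0.14 to 0.35), and Cd44, at 0.20 (0.12 to 0.27), were also measured. Id2 was higher in knockdown cells in each compared gated class by point estimate. Its ratio ran from 0.25 (0.13 to 0.37) in early neutrophil-like to 1.17 (-0.14 to 2.66) in stem marker-high cells. Myc was at 0.48 (0.24 to 0.73) in monocyte-like and 0.65 (0.17 to 1.14) in late neutrophil-like cells. In the other compared gated classes it was between -0.135 and 0.014. Of the targets under the floor, Jun, an AP-1 subunit, had 209 UMIs in the knockdown and 328 in the control library, 3.32 and 6.66 CPM (log2 interval -1.26 to -0.75), and Ccnd1, which encodes cyclin D1, 142 and 185 UMIs, 2.26 and 3.75 CPM (-0.73, -1.06 to -0.41). Axin2, the feedback target used most widely as a readout of the pathway, had 3 UMIs in the knockdown and 2 in the control library, and Lef1 had 2 and 0, counts at which no difference was detectable. These 4 genes were picked after their values were seen.

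Genes whose levels ran most like those of the better measured members were looked up over 14 points, the 7 gated classes in each library, among 4554 genes. Fam120a (Pearson r = 0.99) and Atp5g3, an ATP synthase subunit (0.98), ran most like Ctnnb1. Got2, the mitochondrial aspartate aminotransferase (0.98), and Ywhag, a 14-3-3 protein (0.98), ran most like Csnk1a1. The closest to Gsk3b were the predicted genes Gm9843 (0.87) and Gm9493 (0.76). The points share libraries, class totals and the marker gates, and these values are descriptions of log2(CPM + 1) without a test.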

How the data were processed

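Single-cell RNA of 2 pooled libraries was measured. The authors deposited UMI counts for each gene in each barcode. The submitters' processing notes name Cell Ranger 2.1.1 and mm10; which gene annotation was used is not given in the sources used here. Cells with at least 500 genes and at most 10% mitochondrial UMIs were kept, which removed 11 knockdown and 13 control barcodes. No doublet caller was run; cells passing several gates were set apart. Counts were summed over cells per class and library and divided by the class total, as CPM. Intervals are exact (Poisson for levels, binomial split for ratios, Clopper-Pearson for shares), treat UMIs as independent, and leave out the spread between cells, cultures and mice. The arithmetic was tested on simulated data. Gate cuts were set from marker sums after the data were seen. Members, lists and tests were chosen with earlier results of these data known. Text names all members, the 3 highest genes of each list, the measured target genes, list genes of at least 20 CPM past 1.2-fold, and the 2 genes most like a member. Python 3.11.15, numpy 2.4.6 and scipy 1.17.1 were used. Coordinates are from GENCODE M21 (GRCm38).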

Additional observations from a re-analysis of the deposited data

How the results depend on the processing

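The count of members past 1.2-fold over all cells, 0 as reported, was 1 with cells thinned to 5000 UMIs, 2 without the floor on low levels and 5 in cells of 10000 to 15000 UMIs. Pairs of a member and a class that were higher, 1 as reported, numbered 0 with size factors, 4 when thinned, 2 with the mean over cells and 0 with gate cuts halved. Lower pairs, 3 as reported, numbered 7 when thinned, 5 with the mean over cells and 1 with gate cuts halved. The log2 ratio of Gsk3b in monocyte-like cells, -0.26 as reported, reversed to 0.044 when thinned. Members past the 2-fold range across classes, 1 as reported, numbered 0 with size factors, the mean over cells, and gate cuts halved or doubled. Members lower in late neutrophil-like cells, 4 as reported, numbered 1 with size factors. Pathway list genes past 1.2-fold, 3 as reported, numbered 6 when thinned, 30 without the floor and 1 with a floor of 20 CPM. The Dvl2 share moved to 64.8% over all control cells and 70.0% in control late neutrophil-like cells when thinned, and to 69.8% in knockdown progenitors with cuts doubled. The Gsk3b share moved to 79.3% in knockdown progenitors with cuts doubled and 76.9% in control progenitors when thinned. Ctnnb1 was found in 19.0% of knockdown and 16.9% of control cells at 3000 UMIs, and in 49.3% and 58.1% without thinning, where fewer or more UMIs per cell set the share. For the other values the cause was not tested. No paired analysis was possible because each group had 1 library, and for the same reason no replicate could be left out. The low counts of Dvl3 and Tcf7l2 limit what their ratios show.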
